A study of Mus musculus with 9 samples.

Results

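In mouse oligodendrocytes (OLs) made in culture, 770 stretches of the genome carried a broad field of H3K27ac that was short or missing in the progenitors they came from. H3K27ac is acetylation of lysine 27 of histone H3, measured by chromatin immunoprecipitation and sequencing (ChIP-seq). The 4 deposited H3K27ac peak lists were pooled over chromosomes 1 to 19, and peaks within 12500 bp of each other were joined into 28896 domains. A domain was taken as OL-gained when peaks covered at least 4 kb of it in the OL lists of both cell lines, and when the covered length in oligodendrocyte progenitor cells (OPCs) was at most 0.5 times that in OL in each line. This rule kept 770 of 28896 domains (2.66%), and 37.7% of the 2043 domains with at least 4 kb in both OL lists. The covered lengths of OPC and OL chose the domains, so these lengths are given as a description and their contrast is not tested.

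OPCs came from the epiblast stem cell lines EpiSC5 and 129O1, for which the labels name the strains 129SvEv and 129S1/SvImJ without pairing line and strain. They were grown without SHH, in medium with bFGF and PDGFA, and had been sorted on CD140a and NG2. OLs were O1-positive cells, called intermediate in the labels, collected with a magnetic sorter. All groups are unmodified cultures with no genetic change or drug named, and each cell line gave 1 list per target, so the lines are the replicates and nothing is known about spread within a line. Lists of H3K27ac exist for both states of both lines. For SOX6, a transcription factor of the SOXD group, the OL state was profiled in EpiSC5 only, so there are 3 lists. Where 2 values are given together for a state, 129O1 comes first and EpiSC5 second.

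Acetylation of this residue marks active promoters and enhancers, and long runs of it are known from genes that a cell type uses heavily. OPCs divide and move under growth factor signals. As they mature they leave the cell cycle, extend flat processes and wrap axons, which takes new adhesion proteins, a rebuilt cytoskeleton and large amounts of membrane lipid. SOX6 is known as a factor of OPCs that holds back differentiation.

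The H3K27ac lists held 26967 to 33058 peaks on these chromosomes and covered 36.2 to 50.0 Mb. Those of SOX6 held 22320 and 15166 peaks in OPC and 3858 in OL. The lists give no read counts, so depth is unknown, and absence from a list says only that no peak was listed. At Pdgfra, which encodes CD140a, H3K27ac covered 15.2 and 12.9 kb in OPC and 2.55 and 1.54 kb in OL. At Cspg4, which encodes NG2, it covered 16.8 and 12.1 kb in OPC and 11.9 and 9.18 kb in OL. The summed length over 31 OPC genes was 382 and 291 kb in OPC and 302 and 235 kb in OL, so the groups overlapped. Of these genes, 27 and 25 had a peak in OL. Of 10 microglia markers 3 or 4 had a peak in each list, with Aif1 and Cx3cr1 at 0 in all 4 and Csf1r at 0 in both OPC lists and 2.78 and 1.68 kb in OL. Of 10 pluripotency markers 3 had one in each OPC list and 2 and 1 in OL, with Pou5f1 at 0 in all 4. The summed length over 14 astrocyte markers was 49.2 and 39.1 kb in OPC and 61.4 and 31.2 kb in OL, so the groups overlapped. Over 14 neuron markers it was 53.1 and 43.6 kb in OPC and 36.6 and 25.9 kb in OL, and over 10 Schwann cell and neural crest markers 26.4 and 22.6 kb in OPC and 36.7 and 36.9 kb in OL. Of the last list Mitf alone had 5.67 and 6.16 kb in OPC and 20.7 and 25.6 kb in OL, and the other 9 markers summed to 20.7 and 16.4 kb in OPC and 15.98 and 11.3 kb in OL. Whether other cells in the cultures bear on the lengths was not tested. In bulk chromatin, more cells with a peak and more acetylation per cell cannot be told apart.

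Some start sites inside OL-gained domains carried H3K27ac in the OL lists of both lines and in neither OPC list, and their sequences show which promoters these were. The RefSeq promoter table (GRCm38.p6, the assembly that mm10 names) gave 438 protein-coding windows in the domains, each from 250 bases before to 50 bases after a start site. Of these, 31 windows of 27 genes overlapped OL peaks of both lines and no OPC peak. Windows of 6 genes that lay wholly inside OL peaks are printed, 5′ to 3′ along the gene. Chn2, Sema4d and Tfeb came from the naming rule, and Mobp, Enpp6 and Mag were chosen after their values were seen because they belong to the oligodendrocyte gene lists. Each window stands for a single start site and not for the whole gene. The Chn2 and Tfeb domains also held a coding start site with H3K27ac in all 4 lists. Capitals mark ACAAT and ACAAAG, which match the short core that SOX proteins bind, and CTGGNAC, on either strand. CTGGNAC was searched as a loose form of the MYRF motif, with any base at N, so a match need not be a MYRF site.
Chn2, chr6:54272572-54272871, plus strand: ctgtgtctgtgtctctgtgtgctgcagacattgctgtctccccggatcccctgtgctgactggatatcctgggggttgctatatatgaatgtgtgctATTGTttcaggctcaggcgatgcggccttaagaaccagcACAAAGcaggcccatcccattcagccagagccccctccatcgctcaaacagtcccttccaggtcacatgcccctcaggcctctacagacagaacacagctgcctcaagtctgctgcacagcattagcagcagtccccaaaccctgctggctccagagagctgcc
Mobp, chr9:120149492-120149791, plus strand: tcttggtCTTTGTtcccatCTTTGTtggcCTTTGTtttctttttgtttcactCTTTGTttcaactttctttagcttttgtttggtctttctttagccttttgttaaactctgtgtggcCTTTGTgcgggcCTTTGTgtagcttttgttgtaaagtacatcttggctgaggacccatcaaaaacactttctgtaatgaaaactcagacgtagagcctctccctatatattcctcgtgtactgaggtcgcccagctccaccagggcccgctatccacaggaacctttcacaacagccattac
Sema4d, chr13:51748761-51749060, minus strand: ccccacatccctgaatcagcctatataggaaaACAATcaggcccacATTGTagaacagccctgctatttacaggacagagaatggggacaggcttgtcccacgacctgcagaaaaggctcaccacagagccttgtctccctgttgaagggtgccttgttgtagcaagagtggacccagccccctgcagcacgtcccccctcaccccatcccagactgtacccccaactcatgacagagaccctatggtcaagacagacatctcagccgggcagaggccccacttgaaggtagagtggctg
Enpp6, chr8:46986637-46986936, plus strand: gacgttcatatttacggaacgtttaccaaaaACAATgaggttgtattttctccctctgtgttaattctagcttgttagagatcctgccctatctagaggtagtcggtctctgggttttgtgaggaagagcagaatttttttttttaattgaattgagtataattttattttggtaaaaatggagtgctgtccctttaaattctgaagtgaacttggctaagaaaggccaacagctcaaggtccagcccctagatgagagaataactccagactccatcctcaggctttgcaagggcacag
Tfeb, chr17:47785494-47785793, plus strand: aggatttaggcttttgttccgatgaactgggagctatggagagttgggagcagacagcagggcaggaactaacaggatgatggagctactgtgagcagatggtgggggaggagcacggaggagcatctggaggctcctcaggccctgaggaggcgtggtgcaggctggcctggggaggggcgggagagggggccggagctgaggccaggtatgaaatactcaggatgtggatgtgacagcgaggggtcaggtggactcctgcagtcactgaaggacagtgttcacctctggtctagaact
Mag, chr7:30914814-30915113, minus strand: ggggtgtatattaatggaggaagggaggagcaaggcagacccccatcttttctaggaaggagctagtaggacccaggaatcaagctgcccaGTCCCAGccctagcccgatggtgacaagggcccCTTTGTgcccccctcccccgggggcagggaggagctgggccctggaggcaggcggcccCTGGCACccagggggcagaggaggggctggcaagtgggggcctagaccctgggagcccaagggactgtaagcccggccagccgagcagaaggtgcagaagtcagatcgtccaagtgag

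Few of these start sites carried SOX6: of the 31 windows 3 (9.68%) overlapped a SOX6 peak of 129O1 OPC, 1 (3.23%) one of EpiSC5 OPC and 2 (6.45%) one of OL. In all coding windows of the domains the shares were 24.9%, 13.2% and 17.4%, and in all 20085 protein-coding windows 14.9%, 7.36% and 7.38%. The counts are small, and the differences were not tested. The Chn2 window overlapped a SOX6 peak of 129O1 OPC by 197 bases, none of EpiSC5 OPC, and lay within an OL SOX6 peak over all 300 bases. Chn2 encodes a chimaerin that switches off the GTPase RAC. The Mobp window, the start of a myelin structural protein gene, overlapped a 129O1 OPC SOX6 peak by 166 bases, no peak of the other SOX6 lists, and held 6 copies of ACAAAG. The Sema4d window overlapped an OL SOX6 peak by 272 bases and no OPC SOX6 peak. No SOX6 peak overlapped the printed windows of Enpp6, which encodes a choline phosphodiesterase of newly formed oligodendrocytes, of Tfeb, a transcription factor of lysosome genes, or of Mag, a myelin adhesion protein. ACAAT occurred in 38.7% of the 31 windows, in 22.6% of all coding windows in the domains and in 26.8% of all 20085 protein-coding windows of the table. ACAAAG occurred in 32.3%, 13.2% and 16.6%, and CTGGNAC in 32.3%, 15.5% and 18.5%. Overlapping windows of Mag hold the same matches to ACAAAG and CTGGNAC, and each was counted among the 31. The differences were not tested. Over all 31396 windows, non-coding genes included, the shares were 30.4%, 18.6% and 18.98%. None of the 3 motifs contains another, and a match is a description of the letters alone.

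Such promoters were few. A coding start site carried H3K27ac in all 4 lists in 220 OL-gained domains (28.6%), in OL lists only in 16 (2.08%) and in another combination in 47 (6.10%). Each domain was counted once, in the first of these classes that applied, and the other 487 (63.2%) held no coding promoter window. Among 539 kept domains, which had at least 4 kb in all 4 lists and an OPC to OL ratio from 0.67 to 1.5 in each line, the corresponding shares were 67.2%, 0.186%, 6.49% and 26.2%.

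Small RNA genes lay in these fields too. Of 919 miRNA hairpins on the 19 chromosomes, 24 (2.61%) lay in OL-gained domains, and 9 of those lay wholly inside OL peaks of both lines and outside all OPC peaks, against 22 hairpins anywhere. Of all protein-coding genes, 3.68% overlapped an OL-gained domain with their bodies. The 9 hairpins were Mir219a-2, Mir219b, Mir338, Mir3065, Mir664, Mir6399, Mir7049, Mir7243 and Mir3075. Mir219a-2 and Mir219b lay in the Cercam domain at chr2:29845631-29845727 and chr2:29845647-29845711, on opposite strands, and Mir338 lay in the Aatk domain at chr11:120014765-120014862. miR-219 and miR-338 are known to promote oligodendrocyte maturation. The mature sequences from RefSeq are shown, with the seed (bases 2 to 8) in capitals, and were chosen after the values were seen. They have different seeds.
miR-219a-5p: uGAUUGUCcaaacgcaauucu
miR-219b-5p: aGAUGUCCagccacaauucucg
miR-338-5p: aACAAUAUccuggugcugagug
miR-338-3p: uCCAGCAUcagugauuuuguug

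The median H3K27ac length over the 770 domains was 2.04 and 1.63 kb in OPC and 7.81 and 7.36 kb in OL. The median OPC to OL ratio was 0.265 in 129O1 and 0.217 in EpiSC5. No peak was listed in OPC in 108 domains of 129O1 and in 133 of EpiSC5, and 93 (12.1%) had none in either. The domains held 17.0% and 18.4% of all H3K27ac-covered DNA in the OL lists of 129O1 and EpiSC5, and 4.56% in each OPC list. Of the DNA that was acetylated in OL of both lines inside them, 73.6% lay in no OPC peak, compared with 15.6% in the kept domains. Covered length in OL correlated across the domains between the lines (Pearson r of log2 lengths 0.914, Spearman 0.856, n = 770), although both OL lists had to reach the same minimum.

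**Figure D1:**
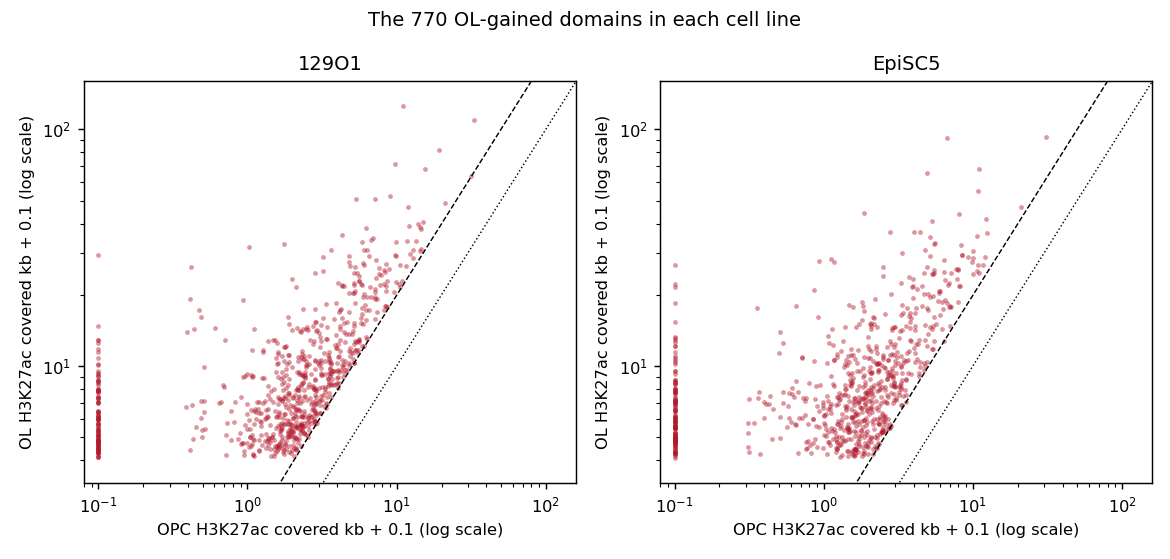
Covered H3K27ac length of each of the 770 OL-gained domains in OPC (x axis, kb + 0.1, log scale) and OL (y axis, kb + 0.1, log scale), 129O1 on the left and EpiSC5 on the right. The dashed line is the limit of the rule (OPC at 0.5 times OL), the dotted line is equality, and the column at the left edge holds the 108 and 133 domains with no OPC peak.

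The domains ran from a few kilobases to whole genes. Their span, gaps between peaks included, had a median of 25.25 kb and a range of 4.38 to 202.2 kb. In both OL lists 65 domains had at least 20 kb covered, 5 had at least 50 kb, and 466 had under 10 kb. Each was made of a median of 4 OL peaks in each line, and the widest single peak had a median width of 4.23 kb in 129O1 and 4.07 kb in EpiSC5. Of the DNA acetylated in OL of both lines, 84.9% lay in bodies of protein-coding genes, against 73.4% over all domains and 72.9% in the kept ones. The body of 1 coding gene was touched by 567 domains, several by 131, and none by 72. In 129O1 463 domains (60.1%) held an OL peak among the 10% with the highest authors' fold enrichment of that list, and in EpiSC5 543 (70.5%) did. The shares were 54.1% and 53.7% for all domains with at least 4 kb in both OL lists, 50.6% and 39.5% for kept domains, and 10.3% and 9.37% for all domains. These differences were not tested, and the enrichment comes from the OL lists that chose the domains.

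Values close to the limits show how gradual the choice is. Domains just inside the ratio limit were those of Shcbp1l, at 4.18 and 3.48 kb in OPC and 9.997 and 6.97 kb in OL, and Mad1l1, at 2.83 and 1.05 kb and 5.66 and 4.82 kb. Nrcam, at 3.30 and 2.302 kb in OPC and 6.59 and 4.73 kb in OL, and Zfp516, at 13.2 and 13.1 kb and 30.4 and 26.2 kb, fell just outside it. Tln2 passed the length limit with 4.004 kb in OL of EpiSC5, and Tgfbi missed it with 3.98 kb.

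A domain is called by the protein-coding gene whose body, with 2 kb on each side, holds most of its OL-covered DNA, or by the nearest gene where none does. The domain with the largest gain lay in Tnr (chr1:159517480-159716059), which encodes the extracellular matrix protein tenascin-R. H3K27ac covered 10.9 and 6.57 kb in OPC and 126.0 and 92.0 kb in OL. Both OL values exceeded both OPC values, which the rule asks for within each line, and OL of 129O1 was the longer. Fyn (chr10:39369222-39571396), a SRC-family kinase that acts in the start of myelination, had 33.02 and 30.8 kb in OPC and 110 and 92.9 kb in OL. Fyn was already broad in OPC, and its start site carried H3K27ac in all 4 lists.

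Tns3 (chr11:8523504-8665346), which encodes a tensin that ties integrins to actin, had 9.69 and 4.82 kb in OPC and 71.4 and 65.2 kb in OL. Ralgps1 (chr2:33170471-33372128), an exchange factor for the GTPase RAL, had 19.1 and 10.8 kb in OPC and 81.9 and 67.6 kb in OL. Rapgef1 (chr2:29619317-29721605), an exchange factor for RAP1, had 15.5 and 10.8 kb in OPC and 67.6 and 54.9 kb in OL. With Tnr and Fyn they make up the 5 domains that had at least 50 kb in both OL lists.

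Nfasc (chr1:132676432-132766551), whose neurofascin protein anchors myelin loops beside the node, had 5.27 and 1.76 kb in OPC and 50.6 and 44.3 kb in OL. Slc22a23 (chr13:34193080-34290586), a member of a solute carrier family, had 8.88 and 7.94 kb in OPC and 52.1 and 43.9 kb in OL. Sema4d (chr13:51718931-51819728), a membrane semaphorin, had 7.10 and 5.22 kb in OPC and 50.7 and 40.7 kb in OL. In each of these the OPC lists stayed under 9 kb and the OL lists passed 40 kb. A field at chr9:122566869-122652525 overlapped no coding gene body and was nearest to Topaz1. It had 6.16 and 2.70 kb in OPC and 38.3 and 36.7 kb in OL. Ptprj, a receptor tyrosine phosphatase, Bcar1, the scaffold p130CAS, and Arhgap35, a GTPase-activating protein, completed the 12 largest gains, with 33.1 to 46.9 kb in OL.

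Some fields had no OPC peak at all. The longest lay in Znrf1 (chr8:111589957-111627070), a ubiquitin ligase gene, with 0 kb in both OPC lists, 29.4 kb in OL of 129O1 and 26.7 kb in OL of EpiSC5. The next were nearest to Ccny (14.7 and 13.1 kb in OL), in Plekha6 (12.7 and 13.01 kb) and nearest to Rasgef1b (11.7 and 12.01 kb). Part of this rests on low-scoring peaks: with the higher-scoring 50% of each list, the gain, as a mean of both lines, was 1.19 rather than 13.9 kb for Ccny, 7.32 rather than 12.9 kb for Plekha6 and 11.9 kb as before for Rasgef1b. SOX6 was listed at Znrf1 in all 3 lists, at 1.04 and 0.689 kb in OPC and 1.99 kb in OL, although the domain had no OPC H3K27ac peak. At Ccny and Rasgef1b no list had a SOX6 peak.

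**Figure D2:**
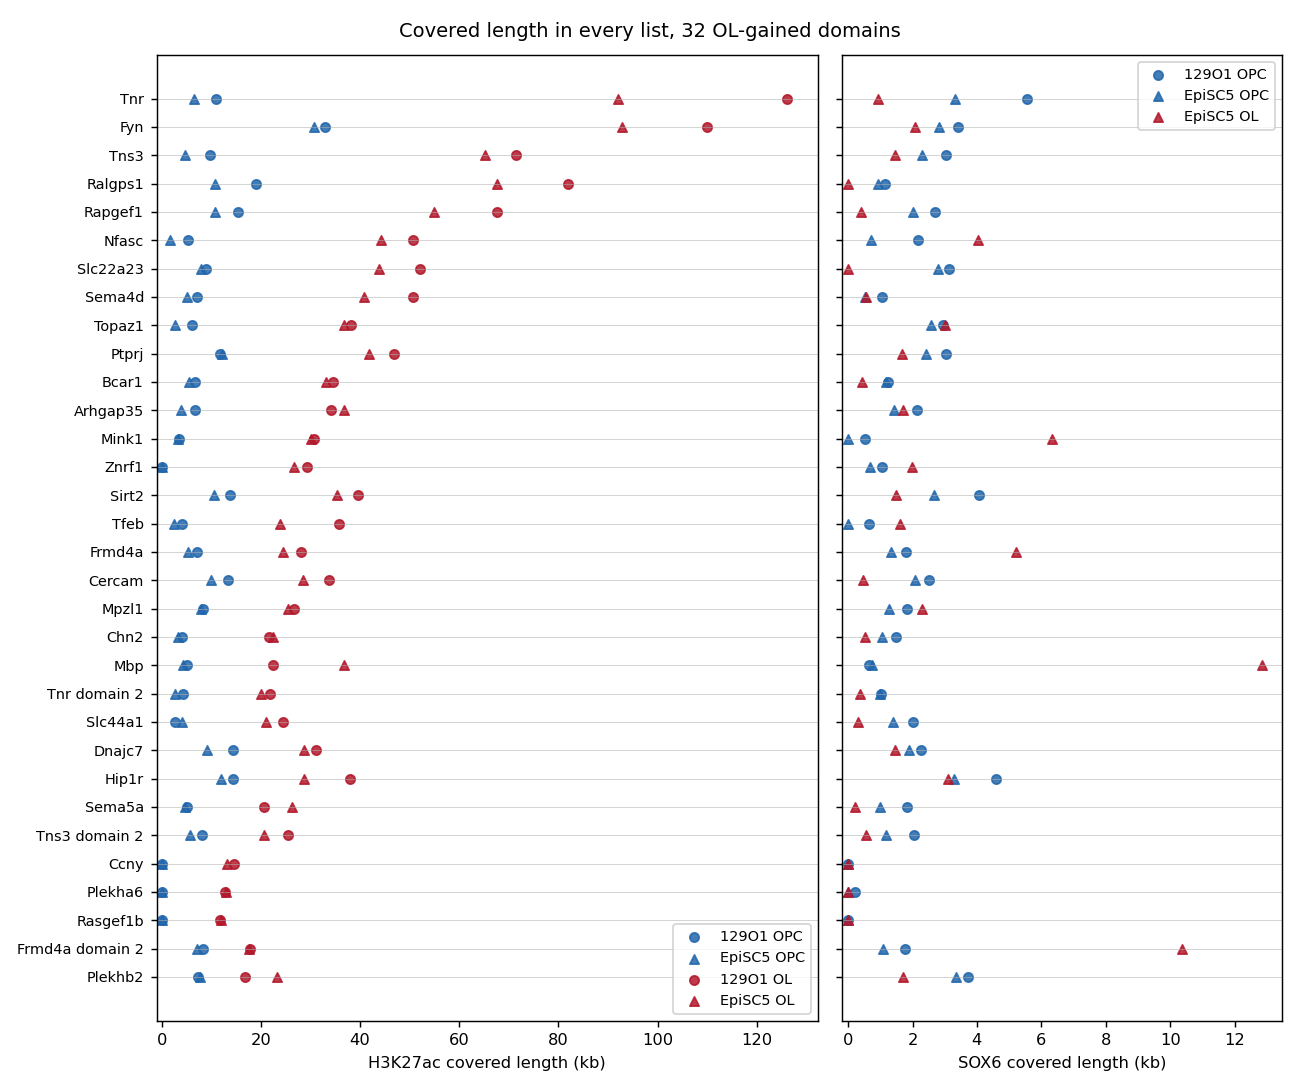
Covered length in kb of H3K27ac (left) and SOX6 (right) in every list for 32 named OL-gained domains, ordered by gain, with OPC in blue, OL in red, 129O1 as circles and EpiSC5 as triangles. The rule places OL to the right of OPC for H3K27ac within each line, while SOX6 is longer in OL than in both OPC lists in only some rows, with Mbp at 12.8 kb farthest out.

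Genes of newly formed oligodendrocytes were touched most often. Gene bodies of 17 of 28 such genes overlapped an OL-gained domain, as did 12 of 28 cytoskeleton and GTPase regulators, 9 of 30 lineage transcription factors, 9 of 35 myelin and mature oligodendrocyte genes, 6 of 24 adhesion and matrix genes and 4 of 20 galactolipid and sphingolipid genes. Over all 20665 protein-coding genes the share was 3.68%, and over the 4725 genes of at least 50 kb, which offer more room for an overlap, 9.38%. Of 31 OPC genes 2 were touched, Chst11 and Sulf2. None of 19 receptor kinase and MAPK feedback genes, 16 cell cycle genes, 13 housekeeping genes, 10 microglia markers and 10 pluripotency markers was touched. Markers of other cells gave S100b of 14 astrocyte genes, Elavl3 of 14 neuron genes and Mitf of 10 Schwann cell and neural crest genes. The lists share members, such as Fyn, Nfasc and Chn2, and no enrichment was tested. They were chosen with earlier results of these data known, so the order of the lists is a description and not independent evidence.

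**Figure D3:**
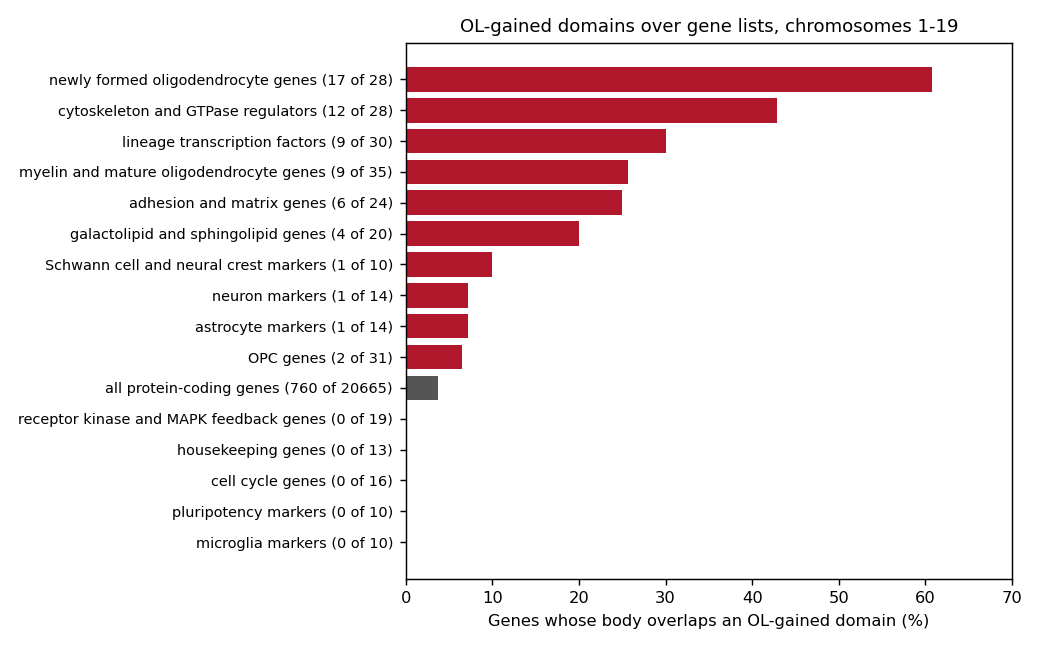
Percent of the genes of each list (x axis) whose body overlaps at least 1 OL-gained domain, with counts in brackets and all 20665 protein-coding genes as the grey bar at 3.68%. Newly formed oligodendrocyte genes reach 17 of 28 and 5 lists stay at 0.

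Among the newly formed oligodendrocyte genes, Sirt2 encodes a deacetylase that acts on tubulin. Its domain, which also overlapped Ech1, Hnrnpl, Nfkbib and Rinl, had 13.7 and 10.5 kb in OPC and 39.7 and 35.4 kb in OL. Over Sirt2 alone, with 2 kb on each side, H3K27ac covered 6.81 and 4.07 kb in OPC and 25.15 and 22.4 kb in OL. Frmd4a, a scaffold of cell polarity, had a pair of domains, the first with 7.13 and 5.42 kb in OPC and 28.0 and 24.6 kb in OL. Enpp6 had 0 and 0.411 kb in OPC and 11.4 and 13.8 kb in OL. The Tmem163 domain had no OPC peak and 8.503 and 12.05 kb in OL, while over the whole gene, with 2 kb on each side, H3K27ac covered 2.23 and 1.06 kb in OPC and 17.0 and 24.3 kb in OL. The Enpp6 domain and this one had at most 0.411 kb listed in OPC, whereas those of Sirt2 and Frmd4a already held several kilobases.

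The myelin genes had shorter fields than Tnr or Fyn. Mbp (chr18:82529429-82585440), the gene of myelin basic protein, had 5.04 and 4.32 kb in OPC and 22.4 and 36.8 kb in OL, with the OL list of EpiSC5 the longer. Mobp had no OPC peak and 6.94 and 10.98 kb in OL, and Mag had no OPC peak and 4.46 and 8.34 kb. Cnp, an enzyme of the inner myelin layers, lay in a domain led by its neighbour Dnajc7, with 14.4 and 9.13 kb in OPC and 31.2 and 28.7 kb in OL. Ugt8a, which makes galactosylceramide, had 5.15 and 5.30 kb in OPC and 18.3 and 24.3 kb in OL. Fa2h, which hydroxylates the fatty acids of that lipid, had 3.02 and 3.31 kb in OPC and 12.6 and 10.2 kb in OL.

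Of the transcription factors on the list, Tfeb had the longest field in OL of 129O1 and Zeb2 in OL of EpiSC5. Tfeb (chr17:47736693-47790757) had 4.18 and 2.41 kb in OPC and 35.8 and 23.8 kb in OL. Myrf, the factor that switches on myelin genes, had 1.45 and 0.990 kb in OPC and 10.7 and 12.4 kb in OL. Zeb2, a repressor needed for myelination, had 2.75 and 5.24 kb in OPC and 17.3 and 24.4 kb in OL. Tcf7l2, a WNT pathway factor of maturing oligodendrocytes, had 9.50 and 6.14 kb in OPC and 20.5 and 14.2 kb in OL.

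Sox6 itself held an OL-gained domain, with 2.77 and 0.613 kb in OPC and 14.001 and 10.7 kb in OL. Over the whole gene body H3K27ac covered 76.9 and 57.2 kb in OPC and 78.9 and 61.2 kb in OL, so the length summed over the gene lay close in both states. SOX6 peaks covered 11.8 and 8.68 kb of the Sox6 gene body in OPC and 0.218 kb in OL. In the gained domain SOX6 covered 0.793 and 0.247 kb in OPC, and no OL SOX6 peak was listed.

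Both lines had to pass the same limits of length and ratio, so how alike the lines were in H3K27ac within the domains is a description and not a test. The median log2 difference over the 770 domains, 129O1 minus EpiSC5, was -0.08 after scaling the lists to equal totals and 0.13 without it, so its sign rested on the scaling. In the Tnr domain the OL list of 129O1 was the longer and in the Mbp domain that of EpiSC5. A limma fit of the line difference over 13123 domains has 1 residual degree of freedom and called 0% of all tested domains, OL-gained or not, at adjusted p under 0.05. At unadjusted p under 0.05, 984 domains stood apart, 67 of them OL-gained. The lack of calls therefore does not show that the lines were alike.

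SOX6 was listed in OPC, the state in which these fields were short, in most OL-gained domains. An OPC SOX6 peak overlapped 579 domains (75.2%) in 129O1 and 491 (63.8%) in EpiSC5, and 481 (62.5%, 95% exact binomial interval 58.9 to 65.9%) in both. In kept domains the share in both OPC lists was 84.4% (81.1 to 87.4%), and in 170 shrunk domains, chosen by the same rule with OPC and OL exchanged, it was 87.1% (81.1 to 91.7%). Over domains with at least 4 kb in both OL lists, which include the OL-gained ones, it was 73.1%. Over all domains, which are much shorter, it was 32.0%. Intervals cover counting error only, and the differences were not tested. Within each quartile of span the OL-gained share, from 54.4% to 77.2%, was below the kept share, from 73.5% to 91.0%. No SOX6 peak of any list was found in 150 OL-gained domains (19.5%) and in 3.53% of the kept ones.

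In OL of EpiSC5, 281 OL-gained domains (36.5%, 33.1 to 40.01%) held a SOX6 peak. Over domains with at least 4 kb in both OL lists, the set they were drawn from, the share was close, at 38.7%. It was 46.6% for kept domains, 8.82% for shrunk domains and 8.93% for all domains. The OL SOX6 list is much shorter than the OPC lists, so the shares were also taken at equal numbers of peaks. With the 3858 highest-scoring peaks of each list, the share of OL-gained domains with SOX6 was 30% and 28.2% in OPC and 36.5% in OL, so the order of OPC and OL turned. In kept domains the same shares were 45.6%, 44.0% and 46.6%, and in shrunk domains 43.5%, 47.1% and 8.82%. Over domains with at least 4 kb in both OL lists they were 37.35%, 35.4% and 38.7%. OL-gained domains make up 12.8% of the span of all domains, and they held 5.67% and 5.84% of the SOX6-covered length of the OPC lists and 13.8% of that of the OL list.

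**Figure D4:**
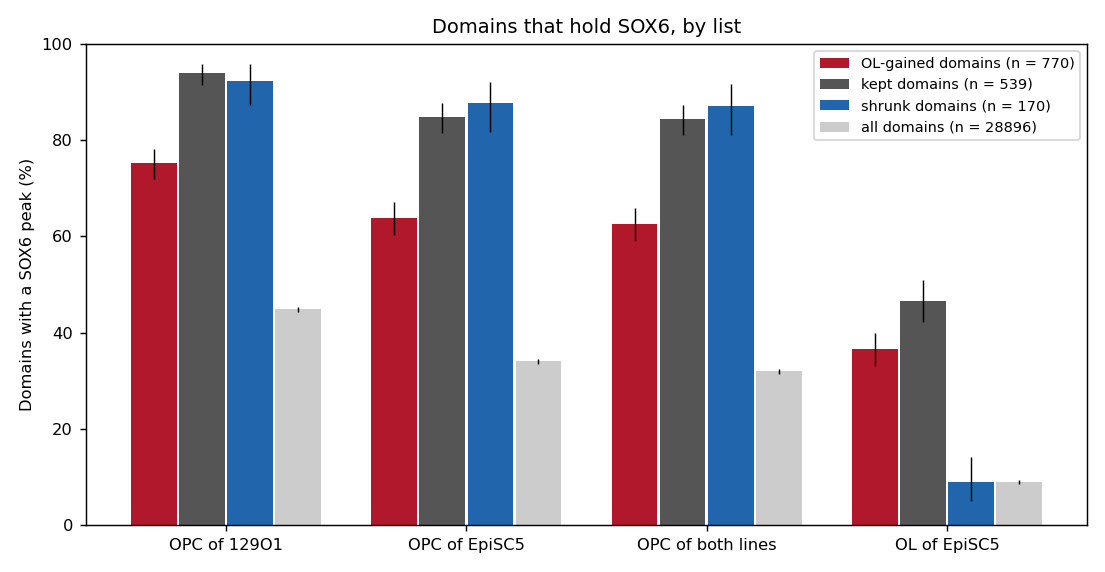
Percent of domains with a SOX6 peak (y axis) for OPC of each line and of both, and for the OL list, in OL-gained (red), kept (dark grey), shrunk (blue) and all domains (light grey), with 95% exact binomial intervals as error bars. OL-gained domains stand at 62.5% for OPC of both lines, below kept domains at 84.4%, and at 36.5% for OL, where shrunk domains stand at 8.82%.

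OPC SOX6 was densest in DNA that was acetylated in both OPC and OL. In OPC of 129O1 SOX6 covered 168 bp per kb of the DNA in OL-gained domains that was acetylated in OPC and OL, 15.9 bp per kb of DNA acetylated in OL only, and 0.664 bp per kb of DNA that was not acetylated. In OPC of EpiSC5 the densities were 150, 11.6 and 0.534 bp per kb. DNA acetylated in OPC only lay between, with 46.5 bp per kb in OPC of 129O1 and 48.1 bp per kb in OPC of EpiSC5. Kept domains had 143 and 117 bp per kb in DNA acetylated in both states, below the OL-gained densities. In DNA acetylated in OL only they had 15.1 and 11.6 bp per kb, close to the OL-gained densities. Shrunk domains were denser, with 249 and 235 bp per kb in DNA acetylated in both states. In their OL-only DNA, just 15.95 and 21.4 kb long, SOX6 covered 49.1 and 32.0 bp per kb. Of OPC SOX6 peaks in OL-gained domains, 26.6% in 129O1 and 26.3% in EpiSC5 fell in DNA that was acetylated in OL only, against 3.22% and 3.41% in kept domains, where little such DNA exists.

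OL SOX6 had a different layout. In OL-gained domains it covered 39.6 bp per kb of DNA acetylated in both states, 9.12 bp per kb of DNA acetylated in OL only and 2.79 bp per kb of DNA that was not acetylated. In kept domains the densities were 29.6, 2.80 and 0.247 bp per kb. Of 539 OL SOX6 peaks in OL-gained domains 39.1% lay in DNA acetylated in OPC and OL, 37.7% in OL-only DNA, 1.11% in OPC-only DNA and 22.1% outside H3K27ac peaks. By a separate count, 38.8% of the 539 overlapped a SOX6 peak of EpiSC5 OPC. These peaks outside acetylated DNA were concentrated. The 5 domains with most OL SOX6 held 57 of the 119 such peaks and 24.0% of the OL SOX6 length, and without them 13.996% of the peaks lay outside and OL SOX6 covered 5.15 rather than 6.67 bp per kb of span.

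**Figure D5:**
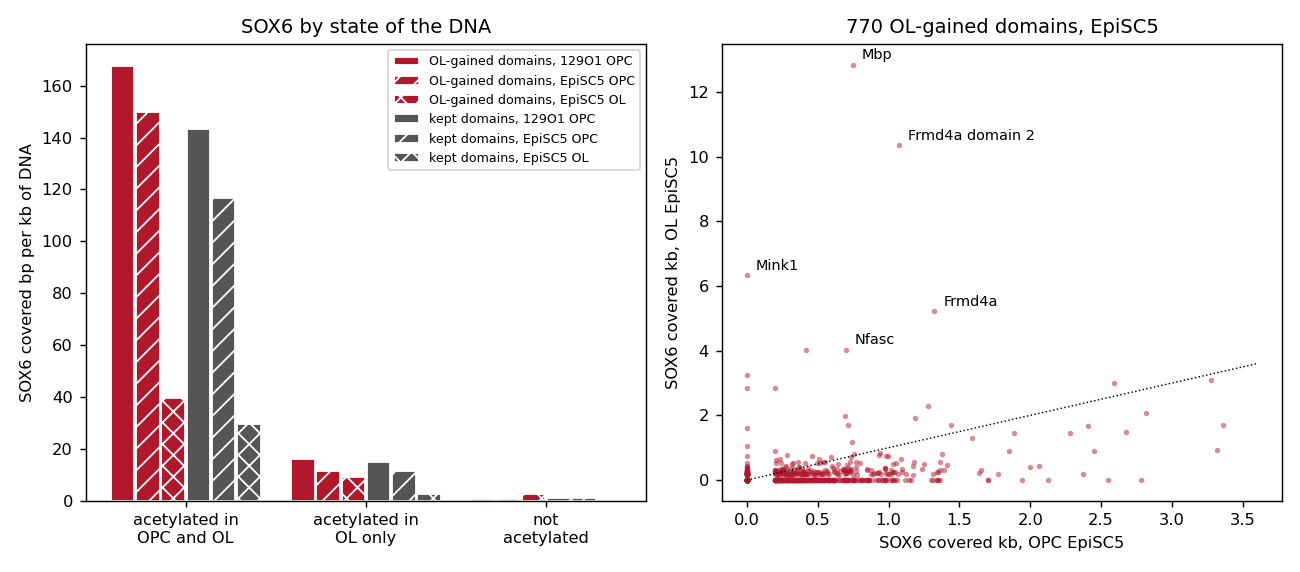
Left, SOX6-covered bp per kb of DNA (y axis) by state of the DNA in OL-gained (red) and kept (grey) domains, with plain bars for 129O1 OPC, hatched bars for EpiSC5 OPC and crossed bars for EpiSC5 OL. Right, SOX6-covered kb of each of the 770 domains in OPC (x axis) and OL (y axis) of EpiSC5, with equality dotted and the 5 domains with most OL SOX6 named, from Nfasc at 4.03 kb to Mbp at 12.8 kb.

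Within EpiSC5, the line with both states, SOX6 was shorter in OL than in OPC in 435 of the 770 domains and longer in 115, which is 56.5% and 14.9%. Over all domains, most of them short, 32.6% were shorter and 4.65% longer. Over domains with at least 4 kb in both OL lists the shares were 67.5% and 12.9%, and over kept domains 78.7% and 12.1%. Another 220 had no SOX6 in either state. SOX6 was longer in OL than in either OPC list in 78 domains (10.1%), and in 31 (4.03%) it was listed in OL alone. Over domains with at least 4 kb in both OL lists these shares were 7.24% and 2.89%, and over all domains 2.91% and 1.58%. At least 2 kb of OL SOX6 was found in 13 OL-gained domains (1.69%). It was found in 21 domains with at least 4 kb in both OL lists (1.03%) and in 26 of all domains (0.09%). The OL-gained domains are part of both larger sets, and the differences were not tested.

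The SOX6 difference between states was fitted with limma on log2 of covered kb plus 0.1, over the 7727 domains with a mean of at least 0.2 kb, of which 462 were OL-gained. OL is 1 list of 3858 peaks against OPC lists of 22320 and 15166, and it has no replicate, so the fit assumes that it varies like the OPC lists. Its calls compare these 3 lists, not the states, and are given only as counts. At adjusted p under 0.05, 75.7% of all tested domains were called lower in OL and 0.362% higher. Among OL-gained domains 267 were called lower and 8 higher, and 308 were not tested. The filter's mean runs over the 3 lists, of which OL is only 1, so a domain passed more easily through OPC SOX6 than through OL SOX6. That tilts the tested domains, and so the calls and medians, toward lower values in OL. The median log2 difference, OL minus OPC, was -2.31 over all tested domains and -2.10 over the OL-gained ones tested. When the lists were scaled to equal covered length these medians became -2.09 and 0.63, with 3550 domains called lower and 1361 higher, and the direction for the OL-gained domains turned. With no filter 451 were called lower and 457 higher.

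Named domains spread over both directions, and for many the direction rested on the scaling. Tnr had the most OPC SOX6 in 129O1, with 5.56 and 3.32 kb in OPC and 0.943 kb in OL. Scaled to equal covered length, its values became 3.36 and 3.02 kb in OPC and 3.86 kb in OL, so the OL list turned from lowest to highest. The domain nearest to Plekhb2, with the most OPC SOX6 in EpiSC5, had 3.73 and 3.36 kb in OPC and 1.70 kb in OL, and 2.25, 3.05 and 6.98 kb after scaling, where the order turned too. Fyn, at 3.41 and 2.82 kb in OPC and 2.07 kb in OL, and Hip1r, an adaptor of endocytosis, at 4.61 and 3.28 kb in OPC and 3.10 kb in OL, turned likewise, with 8.45 and 12.7 kb in OL after scaling. Slc22a23 had 3.13 and 2.78 kb in OPC and no OL peak, so no scaling can turn its order.

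Mbp was the other extreme, with 0.639 and 0.746 kb of SOX6 in OPC and 12.8 kb in OL. The Frmd4a domains had 1.80 and 1.32 kb in OPC and 5.22 kb in OL, and 1.76 and 1.07 kb in OPC and 10.4 kb in OL. In all 3 domains the OL list was above both OPC lists without scaling, and scaling widens the gap since the OL list is the shortest. Mink1, a STE20-family kinase, had 0.538 and 0 kb in OPC and 6.33 kb in OL, and Nfasc had 2.18 and 0.696 kb in OPC and 4.03 kb in OL. Their OPC lists lay farther apart than those of Mbp.

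Other domains in which OL SOX6 exceeded both OPC lists, chosen after their values were seen, were those of Camsap2, a microtubule minus-end protein (0.407 and 0.415 kb in OPC, 4.03 kb in OL), Map4k4, a STE20-family kinase (0.283 and 0.195 kb, 2.86 kb), Aatk, which hosts Mir338 (0.219 and 0 kb, 2.84 kb), Bin1, a membrane-bending protein (0 and 0 kb, 1.04 kb), and 5031439G07Rik (0.277 and 0.282 kb, 0.769 kb). With 1 OL list none of these differences has a replicate check.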

How the data were processed

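ChIP-seq of H3K27ac (9 µg of antibody per sample) and SOX6 (15 µg) was deposited as 7 peak lists, 1 per library. Libraries were sequenced on 1 of 2 instruments, per the labels' protocols, which do not tie libraries to instruments, so no batch comparison was made. The submitters' processing notes name mm10 and, for the authors' steps, Bowtie2 2.3.2, Trim Galore 0.3.1, bedtools, deepTools and Picard. No peak caller is named: it is not given in the sources used here. The 2 input samples, whose titles say ESCs and whose other labels say OPCs, were not analysed here. The deposited score of a peak is 10 times its −log10 q, truncated, except for 2 peaks in each H3K27ac list. The authors' fold enrichment (a ratio) and the deposited −log10 p and −log10 q served only to rank or describe peaks of 1 list.

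Peaks on chromosomes 1 to 19 were joined into domains and covered lengths were summed (Python 3.11.15, pandas 2.3.3, NumPy 2.4.6, SciPy 1.17.1). Overlap means at least 1 bp. Genes and sequences came from RefSeq tables of GRCm38.p6. Of 305 listed genes 3 were not found. SOX6 lengths (log2 of kb plus 0.1, state term) and H3K27ac lengths (log2 of kb plus 1, scaled, state and cell line terms) were fitted over all domains with limma 3.58.1 in R 4.3.3, with trend and Benjamini-Hochberg adjustment. Such log2 differences understate changes of short lengths. Both fits were tested on simulated data with 200 changed domains. The simulated lists shared the same mean lengths and a common spread. They therefore cannot show how the fit behaves with an OL SOX6 list that is much shorter than the OPC lists. With the lines as replicates, a p-value reflects the spread between 2 cultures, which may be partly technical.

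The domains, gene lists and naming rule were chosen with earlier results of these data known. Named domains are the 12 with the largest gain, the 5 longest with no OPC peak, up to 12 others with list genes, and, for each state, the 5 with the longest SOX6 cover. Some genes that this rule takes are not reported here. Alternatives changed the joining distance, the limits of the rule, the peaks used, the scaling, the filter, the pseudocount and the cell lines used.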

Additional observations from a re-analysis of the deposited data

How the results depend on the processing

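The number of OL-gained domains, 770, stayed within 1.5 times of that under joining at 5000 or 25000 bp (685 and 659), a ratio of 0.67, the higher-scoring 50% of peaks, equal numbers of peaks and equal totals. It was 1650 and 298 with a minimum of 2 and 8 kb and 460 with a ratio of 0.33. By the rule in EpiSC5 or 129O1 alone it was 1176 and 1050. The share with SOX6 in OPC of both lines was 54.6% and 71.2% with joining at 5000 and 25000 bp, 45.03% and 79.9% with 2 and 8 kb, 56.3% with a ratio of 0.33, 42.1% with the higher-scoring 50% of SOX6 peaks and 25.3% with equal numbers of SOX6 peaks. The share with SOX6 in OL was 45.2% with joining at 25000 bp, 23.4% and 51.0% with 2 and 8 kb, and 19.2% with the higher-scoring 50% of SOX6 peaks. With 1 line alone the OPC share was 57.8% to 59.4% and the OL share 31.4% to 31.8%. For domains with a span in the lower 50%, an alternative chosen after seeing the data, the shares were 54.5% and 32.99%, and without the 5 domains with most OL SOX6, also chosen then, the OL share was 36.1%.

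In the SOX6 fit, 5852 domains were called lower in OL and 28 higher. The counts were 451 and 457 with no filter and 3550 and 1361 with scaled lists, and 18 were called higher both with the higher-scoring 50% of SOX6 peaks and with joining at 25000 bp. In EpiSC5 alone the median log2 difference was -2.20, against -2.31. Between the lines, 207 domains were called with no filter and 83 with a minimum of 3 kb, against 0 (984 at unadjusted p under 0.05). The rule fixes the sign of each named domain's gain within each line. With the higher-scoring 50% of peaks the gains of Ccny (13.9 to 1.19 kb) and Plekha6 (12.9 to 7.32 kb) fell by over 1.5 times, the only named ones to do so under the settings tried for them (fewer peaks, scaling, 1 line). No paired analysis was possible because SOX6 in OL was mapped in 1 line, so a cell line term leaves no residual degree of freedom, and because the H3K27ac contrast of OPC and OL chose the domains. Depth is unknown, so a missing peak can be a missing read.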

Other observations

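Several genes carried more than 1 OL-gained domain. Of 599 genes that lead a domain, 79 led at least 2 and 15 at least 3. Long genes offer more room for several domains, and no such count is given for other domains, so this is not shown to be particular to OL-gained ones. Opcml, which encodes a cell adhesion molecule of the immunoglobulin family, led 6 with a summed gain of 32.3 kb. Sema5a, a semaphorin gene, led 5 with 38.3 kb, and Chn2 led 4 with 37.3 kb. Tmem108, Mical3, Grik3 and 9 others led 3 each, among them Hdac4, a histone deacetylase gene, and Dnm3, a dynamin gene. In Chn2, 2 of the 4 domains had no OPC peak and the largest held 4.18 (129O1) and 3.21 kb (EpiSC5) in OPC. By chromosome, OL-gained domains made up 28.8% (chromosome 19) to 46.5% (chromosome 12) of the domains with at least 4 kb in both OL lists.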
